A study of Mus musculus with 47 samples.

Results

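Myelin genes were followed through all libraries of a study of neuropeptide Y (NPY) positive interneurons in which the cytosol of 1 cell at a time was drawn into a patch pipette and its polyadenylated RNA sequenced. The 9 genes Mbp, Mog, Mobp, Mag, Cnp, Cldn11, Mal, Trf and Ptgds were taken by symbol, and each was found among the 22800 gene symbols of the count table. The table holds 47 columns from 8 mice of 3 to 8 weeks of age, called NPY-EGFP in the labels and NPY-hrGFP in the study's methods, and no group received a treatment before sampling that the labels name. Of these columns, 20 were labelled as NPY-positive cells of the auditory cortex (AC), 21 of hippocampal CA3, 3 of CA1 and 2 of the dentate gyrus, and 1 as an NPY-negative neuron, from CA3. The fluorescent reporter marks cells by activity of the Npy gene, so the positive label rests on fluorescence in the slice. Neither the labels nor the methods tie a cell to a mouse. Each region was therefore treated as 1 sample, and all differences below are descriptions without a test.

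Myelin is the membrane that oligodendrocytes wrap around axons, and its protein genes are among the most abundant messages of the mature cell and are low in its precursors and in neurons. Mbp, Mobp and Cnp encode proteins of the cytoplasmic face of the sheath, Mog and Mag encode surface and adhesion proteins, and Cldn11 and Mal encode a tight junction protein and a raft proteolipid. Trf and Ptgds encode the secreted proteins transferrin and prostaglandin D synthase, which oligodendrocytes make without their being part of the sheath. Ptgds is also known from leptomeninges and choroid plexus.

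Libraries were divided by reads on Gad1, Gad2 and Slc32a1, the genes of GABA synthesis and of its vesicular transporter. In 14 columns all 3 genes had 0 reads. These were N10, N49, N50 and N52 of AC, N13, N14, N15, N17, N18, N22 and N23 of CA3, N11 and N12 of the dentate gyrus, and N16, the NPY-negative cell. They were compared with 10 AC and 13 CA3 columns, referred to here as the 23 neuron libraries, which an earlier analysis had matched to cells drawn in the heat maps of the study. The study counts more CA3 cells past its quality control than these 13, and which libraries the others are was not established here. Levels are given as CPM (counts scaled to a total of 1000000 reads on genes). The division used these 3 genes, so their levels are a description: Gad1 was at 740 CPM or more in every neuron library, while Slc32a1 was read in 17 of 23, with a median of 9.71 CPM. In the 14 libraries, 3 reads amount to 5.04 to 73.3 CPM. Of the remaining 10 columns, all with reads on these genes, N4X had nearly the counts of N4 (Pearson's r = 0.999769 across genes, chi-square per degree of freedom 2.20) and was counted with it, leaving 9 and a total of 46 libraries. The chi-square lay above sampling noise but far below the lowest value of 37.03 among the 91 pairs of libraries without GABA reads. Depth moved with the division. The 14 libraries held 40934 to 595759 reads and 633 to 5056 detected genes, and the neuron libraries held 1715012 to 7949918 reads and 3163 to 8149 genes, and the part of depth in each difference between them was not tested beyond thinning to a common depth.

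All 9 myelin genes were read in 3 of 46 libraries, N16, N18 and N23, all from CA3. In these cells the 9 genes took 12.5%, 12.5% and 13.9% of all reads (exact Clopper-Pearson 95% intervals 12.4 to 12.6%, 12.4 to 12.6% and 13.75 to 13.96%, which like all intervals here cover counting error only). N16 was the cell labelled as an NPY-negative neuron, while N18 and N23 were labelled NPY-positive. All 3 had 0 reads on Npy, which allows up to 10.3, 8.68 and 7.34 CPM. Snap25, a synaptic vesicle fusion gene, had 0, 0 and 218 CPM in them against at least 875 CPM in every neuron library.

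**Figure D1:**
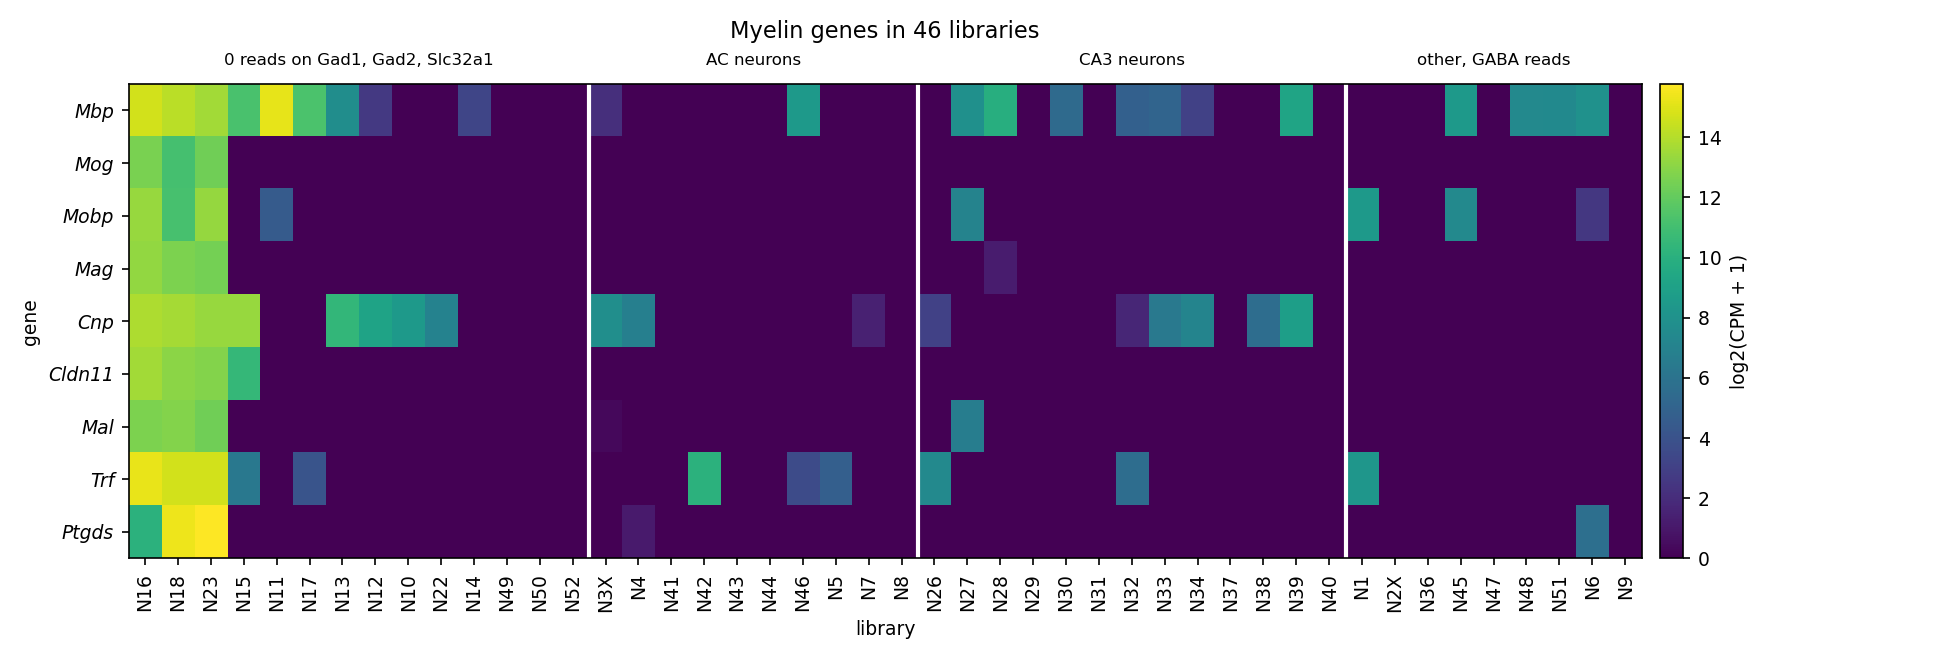
Level of each myelin gene (rows) in 46 libraries (columns), as log2(CPM + 1) on the colour scale, with white lines between the 14 libraries without GABA reads, the 10 AC and 13 CA3 neuron libraries and the 9 other libraries. Only the columns N16, N18 and N23 are filled in all 9 rows, and the rows of Mog and Cldn11 are empty in every neuron library.

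Among genes of the cytoplasmic face, Mbp was read at 26098 CPM in N16, 17773 CPM in N18 and 12480 CPM in N23. Cnp, a cyclic nucleotide phosphodiesterase, had 14334, 12932 and 10113 CPM in the same order. Mobp had 10441, 2277 and 10093 CPM. Mbp and Cnp thus ranged over 2.09-fold and 1.42-fold, and Mobp over 4.59-fold because of a low level in N18.

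The surface and adhesion gene Mog, which encodes a glycoprotein of the outermost lamella, had 6173, 2199 and 5125 CPM. Mag, for an adhesion protein facing the axon, had 9594, 6515 and 5666 CPM. Cldn11 had 12377, 8191 and 7489 CPM. Mal had 6437, 7438 and 5101 CPM. Mag, Cldn11 and Mal varied over 1.69-fold, 1.65-fold and 1.46-fold, and Mog was, as Mobp, lowest in N18.

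Of the secreted genes, Trf was the most abundant member in N16 and Ptgds in N18 and N23. Trf had 38232, 25903 and 26800 CPM. Ptgds had 1128 CPM in N16 but 41760 CPM in N18 and 55690 CPM in N23, a range of 49.4-fold. The Poisson intervals did not overlap (1009 to 1256 CPM in N16 and 41082 to 42447 CPM in N18). Without Ptgds, the sum of the remaining 8 genes was highest in N16, at 123687 CPM, and lowest in N23, at 82867 CPM. The cause of the Ptgds difference was not tested.

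**Figure D2:**
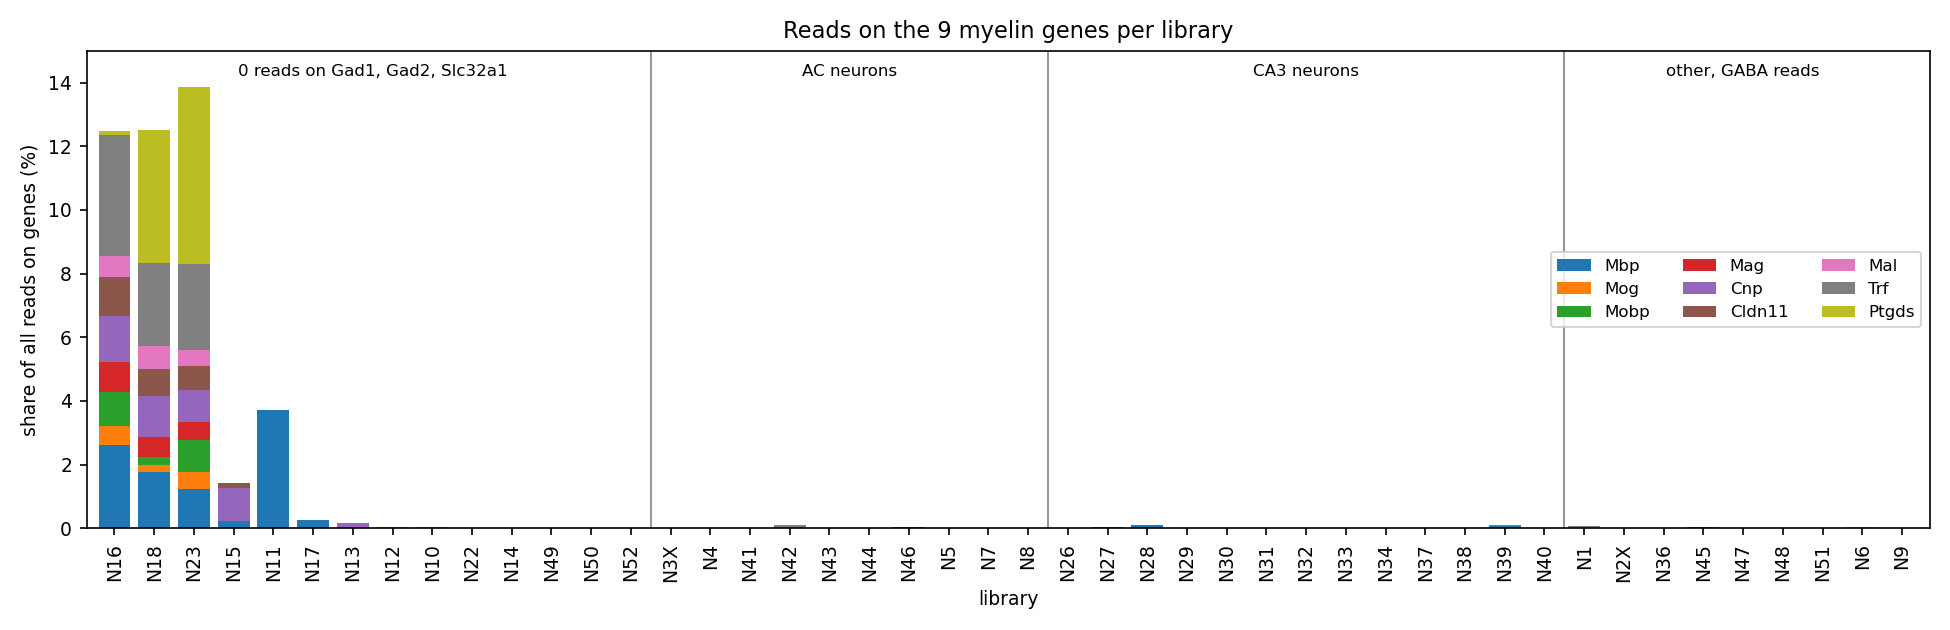
Share of all reads on genes taken by the 9 myelin genes in each of 46 libraries, stacked by gene, on a linear axis from 0. N16, N18 and N23 reach 12.5%, 12.5% and 13.9%, N11 reaches 3.72% with nearly all of it on Mbp, and every neuron library is close to 0.

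Levels of different genes were compared per kilobase of exon, with lengths from the GENCODE annotation of GRCm38. By the mean of the 3 libraries the order was Ptgds with 19927 reads per kilobase in units of CPM, Trf with 9130, Cldn11 with 5001, Cnp with 3424, Mog with 2640, Mal with 2277, Mbp with 2218, Mag with 1783 and Mobp with 1110. From Cnp (2779 to 3939) down to Mobp (332 to 1524), the ranges of neighbours in this order overlapped. Trf (7802 to 11516) lay above Cldn11 (4005 to 6619), and Cldn11 above Cnp, without overlap. Ptgds was the highest gene in N18 and N23 and the lowest in N16, at 684.

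**Figure D3:**
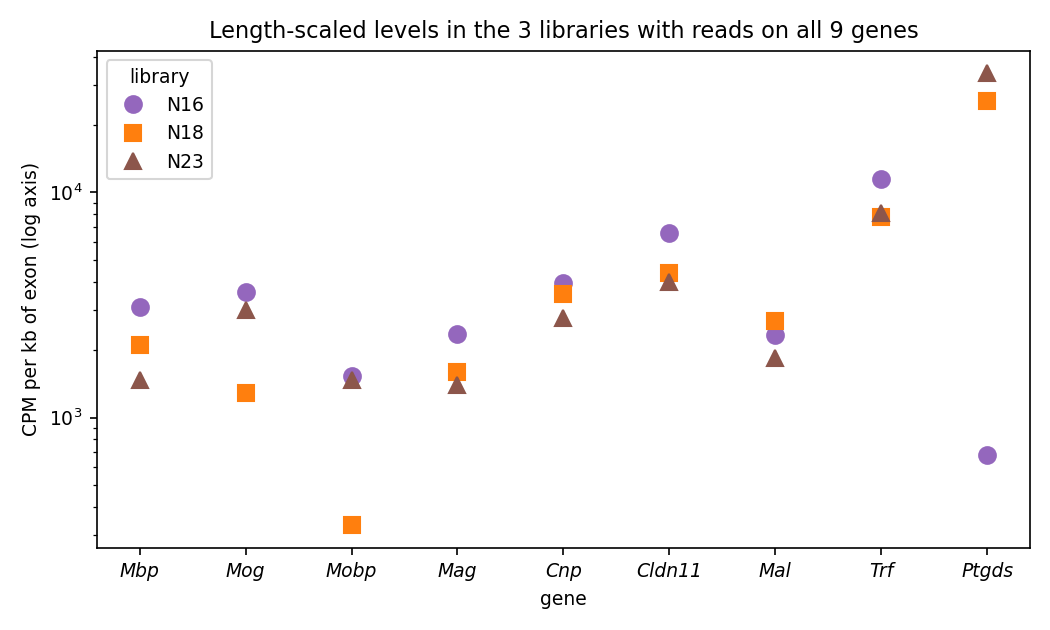
CPM per kilobase of exon (log axis) of each gene in N16, N18 and N23, 1 point per library. The points of 1 gene lie within 4.59-fold of each other except for Ptgds, which lies at 684 in N16 and at 25325 and 33772 in N18 and N23.

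Gene overlaps limit 2 of these values. The Trf locus (GRCm38, chr9:103204001-103230444, minus strand) is overlapped on the same strand by Gm20425, which the table lists with 36909, 25145 and 25889 CPM in N16, N18 and N23, close to Trf itself. The counts of the pair were not identical, with 0 on Trf and 60 on Gm20425 in N13, and how shared reads were assigned is not given in the sources used here. Cnp (chr11:100574904-100591729, plus strand) is overlapped on the opposite strand by Dnajc7, with 169 to 247 CPM in the 3 libraries. In the neuron libraries with the highest Cnp levels the pair was closer, with 3673 reads on Cnp and 1472 on Dnajc7 in N39 and 909 and 805 in N3X. No strand setting of the counting was given in the sources used here. For the other 7 genes no overlapping gene is in the table.

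The regions before the transcription start are shown for members that were read together in N16, N18 and N23. Myrf and Sox10, which encode transcription factors of myelinating oligodendrocytes, were read in these cells at 137, 411 and 58.7 CPM (Myrf) and at 192, 503 and 560 CPM (Sox10). Neither was particular to them. Sox10 had 679 CPM in N14 and 703 CPM in N15, and Myrf 122 CPM in N15, where Mog, Mobp, Mag, Mal and Ptgds had 0 reads. Myrf was also read in 2 of 23 neuron libraries, with up to 147 CPM. RefSeq windows (GRCm38.p6) from 250 bases before to 50 after the start were held for 7 of the 9 genes. The letters CTGGCAC or CTGGTAC, linked to MYRF, occurred on either strand before the start of Mag, Cnp and Mog, in 4 of the 9 windows of these 7 genes, against 7.10% of all 32851 windows. Mag has 3 windows, of which 2 overlap and hold the same match. The letters ACAAAG, linked to SOX proteins, occurred for Mag, Cnp, Mobp and Ptgds, in 5 of the 9 windows (in Ptgds 24 bases after the start, in the others before it), against 18.7% of windows. No match was found for Mal and Cldn11. The 250 bases before the start follow, 5′ to 3′ in the direction of transcription, with both motifs or their reverse complements in capitals.
Mag (chr7:30914864-30915113, minus strand): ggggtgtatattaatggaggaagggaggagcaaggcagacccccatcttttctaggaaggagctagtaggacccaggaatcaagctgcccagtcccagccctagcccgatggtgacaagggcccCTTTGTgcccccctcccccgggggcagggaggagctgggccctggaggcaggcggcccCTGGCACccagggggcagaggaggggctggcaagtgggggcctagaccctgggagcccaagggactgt
Cnp (chr11:100574689-100574938, plus strand): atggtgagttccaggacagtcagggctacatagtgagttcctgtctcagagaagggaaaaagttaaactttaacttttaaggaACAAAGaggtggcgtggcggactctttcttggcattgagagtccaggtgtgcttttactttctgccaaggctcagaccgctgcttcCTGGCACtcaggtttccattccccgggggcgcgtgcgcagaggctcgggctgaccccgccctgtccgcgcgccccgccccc
Mog (chr17:37023399-37023648, minus strand): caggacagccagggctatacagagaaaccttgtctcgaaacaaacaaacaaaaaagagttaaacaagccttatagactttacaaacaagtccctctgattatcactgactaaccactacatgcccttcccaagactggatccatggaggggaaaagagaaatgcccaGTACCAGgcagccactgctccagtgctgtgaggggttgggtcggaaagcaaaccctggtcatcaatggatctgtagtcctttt
Mobp (chr9:120149492-120149741, plus strand): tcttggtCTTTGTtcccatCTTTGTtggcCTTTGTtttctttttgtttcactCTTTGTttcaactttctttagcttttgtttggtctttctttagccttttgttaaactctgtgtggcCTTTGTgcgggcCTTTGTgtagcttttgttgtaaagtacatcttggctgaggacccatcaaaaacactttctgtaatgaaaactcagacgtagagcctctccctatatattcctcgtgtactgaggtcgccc
The MYRF letters began 68 bases before the start in the Mag window shown, 9 before that of the overlapping window and were not in the third, and began 81 in Cnp and 83 in Mog, the last on the opposite strand. The SOX letters occurred 6 times before the start of Mobp, in each case on the opposite strand and starting 243 to 120 bases before it. A match is only an occurrence of letters, and binding was not measured.

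Other genes of the lineage were read in the same cells. Of 27 further genes of mature oligodendrocytes, 24 to 27 were read in each of the 3 libraries, against 3 to 9 in each neuron library. Car2, for carbonic anhydrase, had 3222, 24132 and 17837 CPM in N16, N18 and N23, so that it, as Ptgds, was lowest in N16. Car2 was also read in 7 of 23 neuron libraries with up to 994 CPM. In N10, N12, N13 and N22 it had 975, 1648, 277 and 1023 CPM. Gsn, for the actin-severing protein gelsolin, had 11160, 4699 and 4587 CPM, and was also read in 8 neuron libraries with up to 339 CPM. Enpp2, for autotaxin, had 4734, 5789 and 4640 CPM, and also 1456 CPM in N14 and 3201 CPM in N15. Qdpr, for a pteridine reductase, had 2941, 8740 and 7364 CPM, but was also read in 17 of 23 neuron libraries with up to 953 CPM. Of 9 transcription factors of the lineage, 6 to 7 were read in each of the 3 libraries and at most 1 in any neuron library. Olig1 had 1179, 1681 and 1495 CPM. Of 9 precursor genes, 2 were read, Gpr17 with 14.7 to 57.9 CPM and Bcas1 with 186 to 247 CPM, and Pdgfra, the growth factor receptor of precursors, had 0 reads in all 3.

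Markers of other cell types were low in the 3 cells. Astrocyte genes summed to 991 to 1557 CPM, with 3 to 6 of 12 genes read, mostly Glul (922 to 1120 CPM), for glutamine synthetase, which oligodendrocytes also express. The defining astrocyte genes Aqp4, Gfap, Gja1 and Aldh1l1 were at 0. The microglia genes C1qa, C1qb, C1qc and Csf1r had 0 reads in all 3. Endothelial, leptomeningeal, choroid plexus and pyramidal cell genes had 0 reads. Pan-neuronal reads were confined to Snap25, given above, and to Map2 (37.7, 0 and 22.03 CPM) among the named genes of that list.

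**Figure D4:**
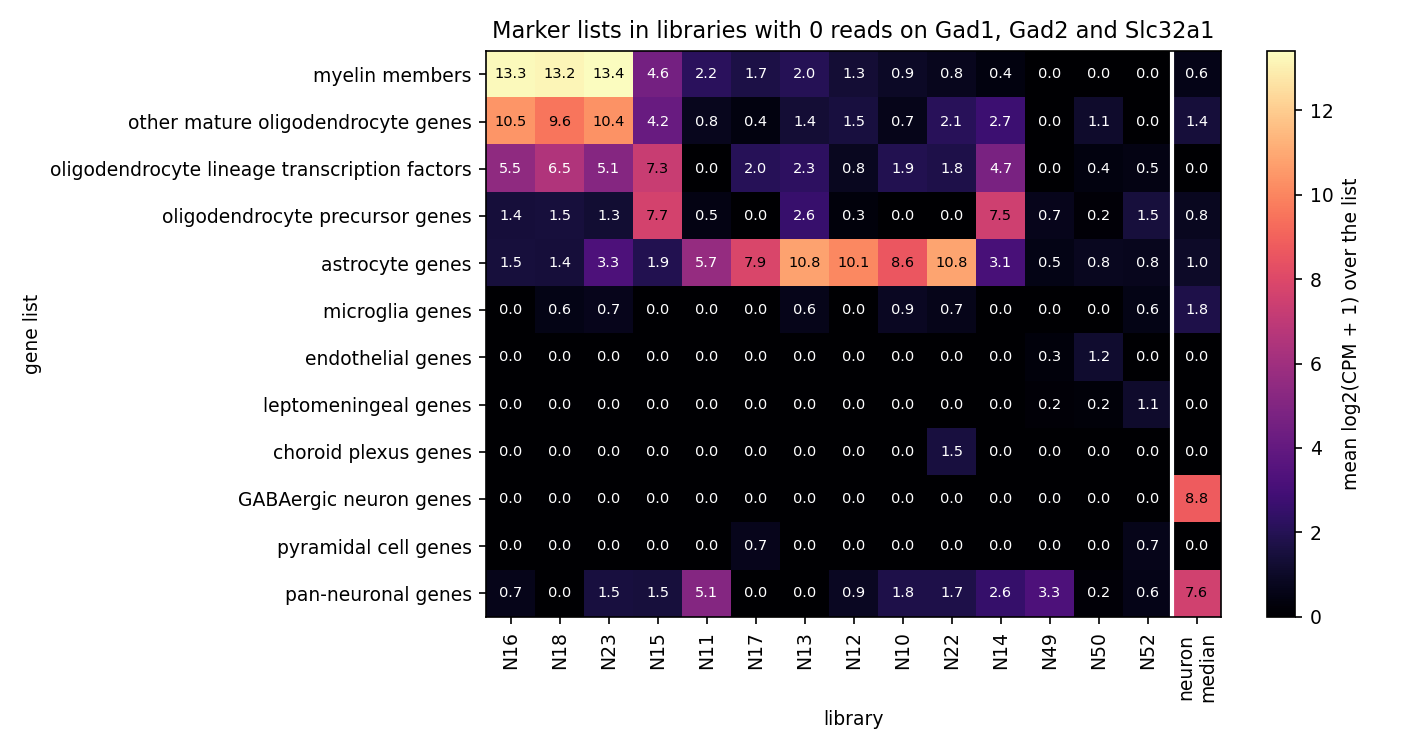
Mean log2(CPM + 1) over the genes of each marker list (rows) in the 14 libraries without GABA reads, with the median over the 23 neuron libraries in the last column. Myelin and mature oligodendrocyte lists are high in N16, N18 and N23, precursor genes in N15 and N14, and astrocyte genes in N13, N12, N10, N22, N17 and N11.

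Of the other 11 libraries without GABA reads, 8 were read on 1 to 4 of the myelin genes and 3 on none. N15 was read on 4 of them. Cnp stood at 10324 CPM, within the range of the 3 cells above, Mbp at 2402 CPM, Cldn11 at 1476 CPM and Trf at 78.6 CPM, and Mog, Mobp, Mag, Mal and Ptgds at 0, which allows up to 13.1 CPM. The same library held the precursor genes Gpr17 at 3476 CPM, Bcas1 at 3201 CPM and Neu4 at 1441 CPM, and Olig1 at 2411 CPM. It was read on 8 of the 9 precursor genes, but Pdgfra had 0 reads and Cspg4 only 8.73 CPM. Its Cnp reads came to 430 per 100 Mbp reads, against 54.9 to 81.0 in the 3 cells, while Cldn11 at 61.5 was near their 46.1 to 60.0. N14, with Pdgfra at 938 CPM and Olig1 at 5448 CPM, had 1 read on Mbp and none on the other 8 genes.

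Cnp was the main member in N10, N12, N13 and N22, with 368, 567, 1383 and 124 CPM. These libraries were high in astrocyte genes such as Aldoc, and their only other member reads were on Mbp, 45 in N13 and 1 in N12. Mbp alone was high in N17, with 2520 CPM from 316 reads beside 2 reads on Trf. N11 had the highest Mbp level of all libraries, 37213 CPM from 3323 reads, with 2 reads on Mobp and 0 on the other 7 genes. This library had 647 detected genes and held Snap25 at 3315 CPM beside astrocyte genes at a sum of 40539 CPM (Aldoc 27616 CPM). Only 6 of the 12 astrocyte genes were read in N11, with Aldh1l1 at 2531 CPM but Aqp4, Gfap and Gja1 at 0. In N17 astrocyte genes summed to 47970 CPM, with 8 of 12 read. N49, N50 and N52 had no read on any member, and in these Rn18s-rs5, a ribosomal RNA gene, took 14.6%, 24.4% and 53.9% of reads against 2.18 to 4.44% in the other 11. Shares of 18.5%, 14.3% and 11.6% were also found in N48, N45 and N46 of AC, which had reads on Mbp, and shares of 17.03% and 10.4% in N9 and N47 of AC, which had no read on any member. Whether low RNA quality bears on these 3 libraries was not tested.

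**Figure D5:**
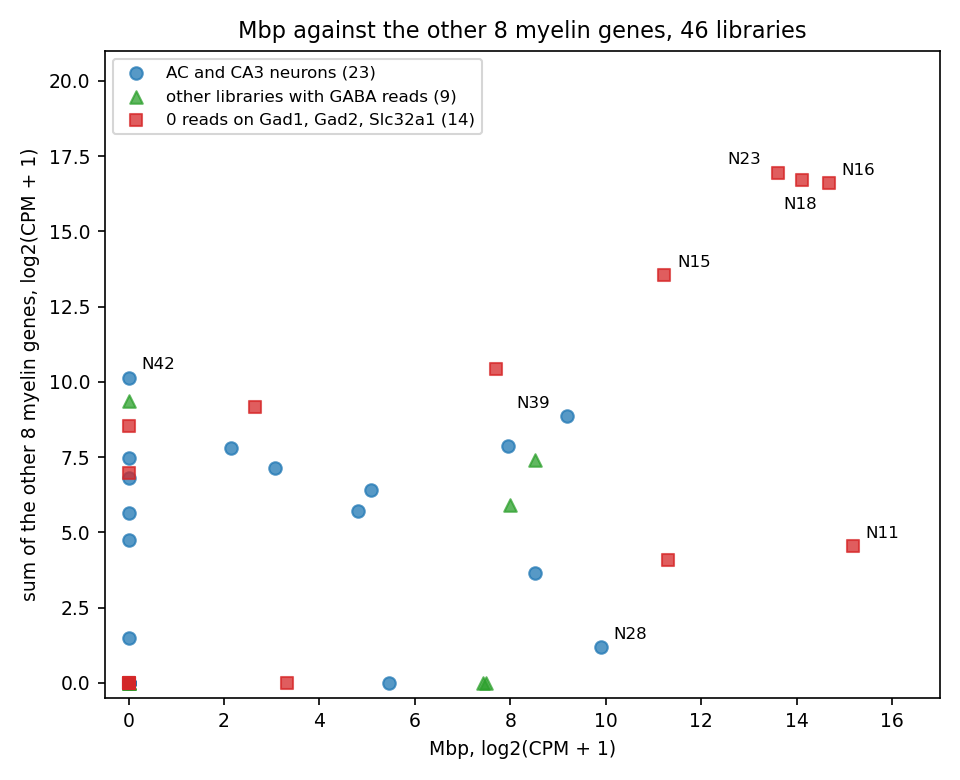
Mbp (x axis) against the sum of the other 8 myelin genes (y axis), both as log2(CPM + 1), 1 point per library. N16, N18 and N23 are high on both axes, N11 is high on the Mbp axis alone, and N42 has 0 reads on Mbp and 1126 CPM on the others.

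In the neuron libraries the 9 genes together took at most 0.113% of reads. Of 23 libraries, 8 had no read on any member, 5 were read on 1, 7 on 2 and 3 on 3. Mog and Cldn11 had 0 reads in all 23. With 3 reads over their summed depth as the limit, 0.0362 CPM, Mog was at least 60769-fold and Cldn11 at least 206982-fold higher in the lowest of the 3 cells with all 9 genes. These cells were picked for having reads on all 9 members, so that these folds and those below describe their size only. Of Mag there were 3 reads, in N28, and of Ptgds 2 reads, in N4. Mal had 250 reads in N27 and 1 in N3X, and Mobp 326 reads in N27.

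Mbp, Cnp and Trf accounted for most member reads in neurons. Mbp was read in 9 libraries, at 949 CPM in N28, 581 in N39, 367 in N46, 245 in N27, 43.3 in N30, 32.97 in N33, 27.1 in N32, 7.41 in N34 and 3.45 in N3X. Cnp was read in 9, with a highest level of 462 CPM in N39 and 224 CPM in N3X, and in the others from 1.78 CPM in N7 to 139 CPM in N34. Trf was read in 5, at 1126 CPM in N42, 170 in N26, 49.2 in N32, 25.9 in N5 and 11.4 in N46. In summed reads over the neuron libraries, the lowest of the 3 cells exceeded them 114-fold for Mbp, 140-fold for Cnp and 435-fold for Trf. These folds lean on single libraries, since N39 held 50.98% of the Mbp and 61.3% of the Cnp reads and N42 held 87.4% of the Trf reads. Without N39 the folds were 211 for Mbp and 327 for Cnp, and without N42 the fold was 3304 for Trf.

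The mix of members in neurons was described by reads per 100 reads on Mbp. Over the 9 neuron libraries with Mbp reads there were 9060 reads on Mbp, 3 on Mag, 0 on Mog and 0 on Cldn11. In the 3 cells, Mag had 36.7 to 45.4 reads, Mog 12.4 to 41.1 and Cldn11 46.1 to 60.0 per 100 reads on Mbp. In N28, the neuron library with the highest Mbp level, Mag had 0.133 per 100. Summed over the 9 libraries, Mobp came to 3.60, Mal to 2.77 and Trf to 2.11 per 100 Mbp reads, below the 12.8 to 80.9, 24.7 to 41.9 and 146 to 215 of the 3 cells, and all Mobp reads and all but 1 Mal read were in N27, where the ratios were 53.2 and 40.8. In N32 the Trf ratio was 181. The Trf sum covers 191 of the 4938 Trf reads in neurons, since N42, N26 and N5 had no read on Mbp. Cnp came to 61.8 per 100, against 54.9 to 81.0 in the 3 cells, but this rested on N39, with 79.5. Without N39, left out after the data were seen, Cnp came to 43.5, and single libraries ran from 0 (4 of the 9) to 6493. A single gene held over 90% of the member reads in 11 of the 15 neuron libraries with any. Marker genes of other cell types were read in neuron libraries. Microglia genes summed to a median of 264 CPM (0 to 6205 CPM, 0 to 8 of 10 genes) and astrocyte genes to a median of 136 CPM (0.545 to 3852 CPM, 1 to 8 of 12 genes). Whether the member reads share a source with these reads was not tested.

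Across the whole division, mean log2(CPM + 1) in the 14 libraries exceeded that in the 23 neuron libraries by 1 or more for 9 of 9 myelin genes, where 8.3% of 11618 genes with reads in at least 3 of these libraries were higher by as much. Of the 9, only Mbp, Cnp and Trf had reads in that many neuron libraries. The other 6 entered through the 14 libraries, so that a higher level there was largely set by the filter and nothing is read from the count. The differences of Mbp, Cnp and Trf were 4.26, 4.25 and 2.55, and the median over all genes was -1.06. Levels in the 14 libraries spread widely, with a mean of 6.70 ± 6.41 (SD over libraries) for Mbp and 2.57 ± 5.12 for Mog, and each gene had libraries at 0 in both sets. Without N16, N18 and N23, a choice made after the data were seen, 2 of 9 genes differed by 1 or more, Mbp (2.23) and Cnp (2.28), where 6.89% of 11408 genes were higher by as much, and of the members only Mbp, Cnp and Trf still had reads in enough libraries to be counted among these. The mean number of members read was then 1.36 per library against 1.22 in neurons, where it had been 3 with them. After thinning to 100000 reads, which 12 of the 14 libraries reached, the mean number was 3.33 in these 12, as before thinning, and 1 in neurons.

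Between AC and CA3 neurons, Mbp was read in 2 of 10 AC libraries and in 7 of 13 CA3 libraries. AC libraries averaged 1.07 ± 2.71 on the log2 scale (SD over libraries) and CA3 libraries 3.50 ± 3.82, so that AC minus CA3 was -2.43. The regions overlapped, running from 0 to 367 CPM in AC and from 0 to 949 CPM in CA3. It was the only 1 of the 9 genes to differ by 1 or more, where 48.3% of 10630 genes did so in either direction, and only Mbp, Cnp and Trf had reads in enough libraries to be counted in that total. The number of such genes was 2 with TMM factors or after thinning to 100000 reads, 3 with a pseudocount of 0.1 or without N3X, and 5 with summed CPM. Cnp was 1.61 ± 3.04 in AC and 2.52 ± 3.31 in CA3. Trf was 1.85 ± 3.40 in AC and 1.01 ± 2.48 in CA3, and this difference of 0.85 became -0.07 without N42.

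In the remaining 9 libraries with GABA reads, Mbp was read in N45 (366 CPM), N6 (254 CPM), N51 (180 CPM) and N48 (172 CPM). Mobp was read in N1 (354 CPM), N45 (168 CPM) and N6 (4.88 CPM), Trf in N1 (306 CPM) and Ptgds in N6 (53.6 CPM). Mog, Mag, Cnp, Cldn11 and Mal had 0 reads in all 9.

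The genes whose level across the 46 libraries was most like the mean of the 9 members were sought among 10624 genes with reads in at least 5 libraries, members left out. By Spearman's rho these were mt-Rnr2 (0.684), mt-Co1 (0.684), mt-Nd1 (0.684), mt-Cytb (0.649) and Gpm6b (0.616). By Pearson's r, an alternative added after the data were seen, they were Tmem88b (0.949), Tmem63a (0.943), Ndrg1 (0.908), Fa2h (0.871) and Carhsp1 (0.870). Each of these was read in only 5 of the 46 libraries, with rho from 0.358 to 0.544. Their r, and the levels of Ndrg1 and Fa2h below, thus largely restate the reads in N16, N18 and N23. Libraries share depth in these values, and the coefficients are descriptions. Ndrg1 and Fa2h, for a hydroxylase of myelin lipids, had 0 reads in all 23 neuron libraries and 1468 to 2856 CPM and 1150 to 2098 CPM in the 3 cells.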

How the data were processed

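Counts deposited by the authors, raw reads per gene symbol with no normalization, filled 47 columns labelled as single cells (N4X was counted with N4), and all 47 were matched to samples by title (0 unmatched). The labels name Trimmomatic, STAR, featureCounts and GRCm38, whereas the study's methods name HTSeq as the counter. According to the methods, counts of identifiers sharing a symbol were averaged. Here CPM was computed as counts over the column total, and levels as log2(CPM + 1). Members, lists and column sets were chosen with earlier results of these data known. Because no mouse is named for a cell, no model was fitted and no p-value computed. A difference of 1 in mean log2 level is spoken of as called, among genes with reads in at least 3 columns compared. Intervals on reads are exact Poisson or Clopper-Pearson at 95%, and the limit for 0 reads is 3 reads. Named genes were the members, up to 5 genes per list with the highest mean CPM over libraries without GABA reads, defining markers at 0, and the 5 genes most like the members, and values of some genes picked by this rule are not reported here. Alternatives were scran 1.30.0, TMM of edgeR 4.0.16 and DESeq2 1.42.0 factors, pseudocounts of 0.1 and 10, summed CPM, thinning to 100000 reads and leaving out each library. The step was tested on simulated data for AC minus CA3 (13624 genes), and 200 of 200 changed genes were recovered. Counts were drawn with Poisson noise alone, without spread between cells, and changes were set only in well-read genes. Recovery thus checks the calculation and says nothing of genes as sparse as most members. Python 3.11.15 with scipy 1.17.1 was used.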

Additional observations from a re-analysis of the deposited data

Results flagged for a closer look

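Among the 10 AC neuron libraries, 4 genes had 1 library far from the others, measured as its gap to the nearest other library over the whole range of log2 levels (limit for 10 libraries 0.466). For Mbp this was N46 with a ratio of 0.747, and for Trf N42 with 0.531. For Mal it was N3X with a ratio of 1, from 1 read, and for Ptgds N4 with a ratio of 1, from 2 reads, the other 9 libraries being at 0 in both cases. Chance flags about 1 in 20 groups, and a group with nearly all libraries at 0 is flagged by any single read.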

How the results depend on the processing

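No paired analysis was possible because each sample is 1 cell and the labels number no replicates. Without N16, N18 and N23, added after the data were seen, 2 rather than 9 genes differed by 1 or more between libraries without GABA reads and neurons (6.89% of all genes against 8.3%), the median difference was 0 and the mean number of members read 1.36. The differences of Mag, Mal, Trf and Ptgds then turned to -0.0513, -0.303, -0.428 and -0.0485. With summed CPM the median difference was 8.73 in place of 2.72. Leaving out 1 library at a time gave a median of 1.93 (without N16) to 2.95 and a count of 9, neither of which is a sign of stability since the filter largely set the direction of 6 of the 9 genes. It gave 2.54 to 3.23 members read per library without GABA reads and 1.14 to 1.27 per neuron library. Between AC and CA3, 1 gene differed by 1 or more, against 2 with TMM factors, 3 with a pseudocount of 0.1, 5 with summed CPM and 2 after thinning to 100000 reads. Leaving out 1 library gave 1 to 3 genes (3 without N3X) and a median of -0.10 to 0. The cause was not tested. Depth limits the libraries without GABA reads most, where 3 reads amount to 5.04 to 73.3 CPM.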
